A study of Rattus norvegicus with 6 samples.

Results

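The 35 genes described here belong to the interferon response and to the major histocompatibility complex (MHC), and were picked by name as a pathway. They comprise 21 genes known as type I interferon targets or regulators, 5 genes known chiefly as gamma interferon targets or regulators, and 9 genes of antigen presentation. A probe with a RefSeq accession of the gene was found for 34 of the 35 (Ddx58 had none), out of 15284 genes named on the array. The samples were livers of male Sprague-Dawley (Crl:CD(SD)) rats, bought at 5 weeks of age: 3 rats given 1-amino-2,4-dibromoanthraquinone (ADBAQ, a brominated anthraquinone dye intermediate) at 1000 mg/kg/day, and 3 rats given vehicle. The labels disagree on the vehicle, which one field gives as purified water and another as corn oil, and on the length of dosing, given as 28 days and as 9 weeks. Each rat's liver RNA was hybridised to 1 one-colour Agilent array, and no array held RNA of more than 1 rat as far as the labels say.

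Interferons are secreted proteins that cells release on sensing foreign or misplaced nucleic acid, or, in the case of gamma interferon, that T cells and natural killer cells release on activation. Type I interferon signals through a complex with Stat2 and Irf9 that binds the interferon-stimulated response element (ISRE), and gamma interferon through factors that bind the gamma-activated site (GAS). Their targets block viral replication, mark infected cells and raise the display of peptides on MHC molecules, which in the rat are encoded by the RT1 genes. In liver, hepatocytes carry class I molecules at a low level, while class II molecules mark macrophages, dendritic cells and B cells.

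Levels are given as the log2 of the processed spot intensity minus the log2 of the array's 75th percentile, so 0 is the 75th percentile of the array, and they are compared between groups probe by probe and never between probes. The 75th percentile lay between 570 and 643 intensity units on the ADBAQ arrays and between 433 and 461 on the vehicle arrays, and 62.1% to 65.3% of the 61657 probes were well above background on an array. All 3 ADBAQ arrays were on 1 slide scanned on 1 day and all 3 vehicle arrays on another slide scanned on another day, so slide and scan day cannot be told apart from the treatment. Between the groups, array correlations were 0.975 to 0.981, and the lowest within a group was 0.989. The number of arrays, 3 per group, limits the precision.

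Of the 32 members that could be tested, 4 rose in ADBAQ livers (Rsad2, Ifi47, Gbp2 and Tapbp) and 1 fell (Irf3), by limma with an adjusted p under 0.05. Over all 11344 genes tested the same rule called 20.3%, with 9.05% higher and 11.3% lower, so the members' count of 5 is no larger a share than that of the array as a whole. By role, the median log2 fold change was -0.18 over the 19 tested type I members, 0.56 over the 5 gamma interferon members and -0.03 over the 8 tested antigen presentation members, against -0.04 over all genes. The 3 arrays of each group did not overlap for 12 of the 32 members, 5 with ADBAQ above and 7 with ADBAQ below, where 46.3% of all genes did not overlap, 21.2% with ADBAQ above and 25.1% with ADBAQ below. At an unadjusted p under 0.05 there were 10 of the 32 members, and 4343 of the 11344 genes. Without any 1 of the ADBAQ arrays, or without vehicle replicate 2, the members called higher were 2, and the genes called over the whole array, 2308 with all 6 arrays, were 922 to 1565 with any 1 array left out. Scaling to the spike-in controls moved the median of all genes to 0.72 and those of the 3 roles to 0.58, 1.32 and 0.73 in the same order, since it adds the same 0.76 to the log2 fold change of every gene. In bulk liver RNA, fewer cells of a type and less RNA per cell cannot be told apart, and this holds for each gene below. The plot of all tested members by role shows these values.

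**Figure D1:**
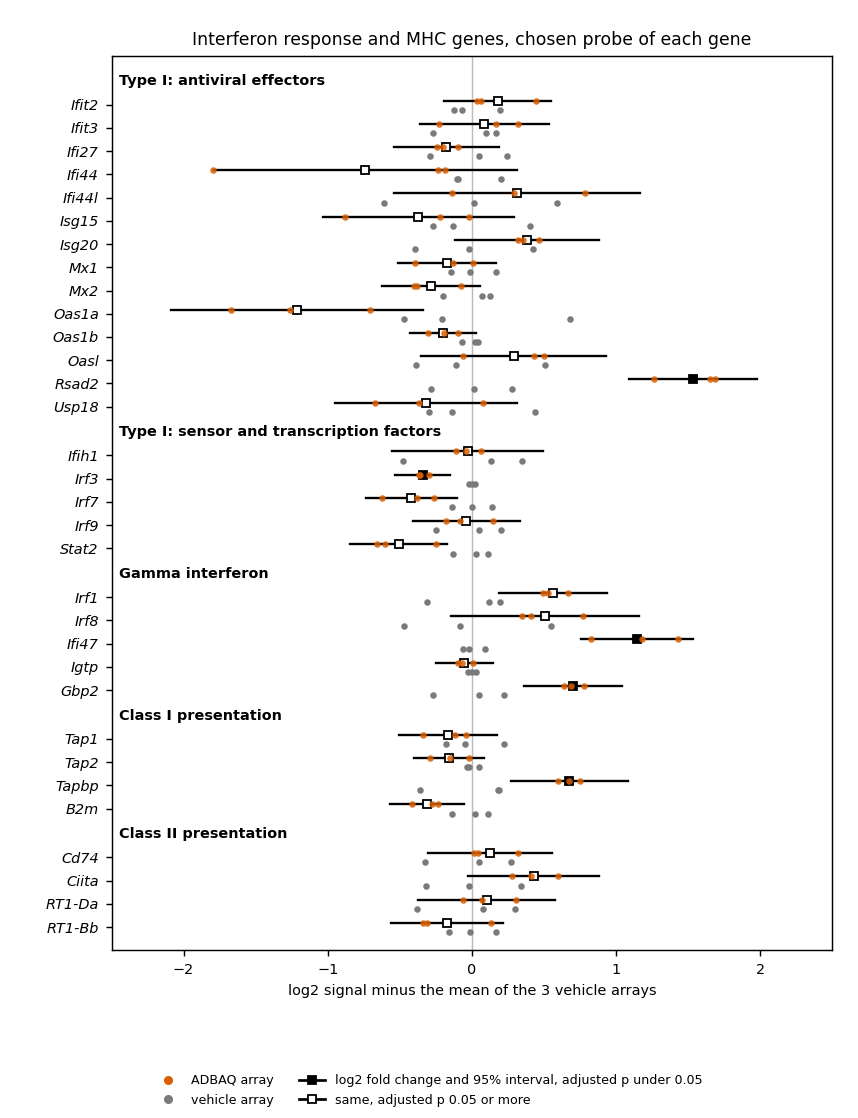
Each row is 1 member, with its 3 ADBAQ arrays in orange, its 3 vehicle arrays in grey, and the log2 fold change with its 95% interval as a square and line, all on a log2 axis relative to the vehicle mean. Filled squares mark the 5 called members, and Rsad2 stands farthest to the right at 1.53.

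Rsad2, which encodes viperin, an enzyme that makes a chain-terminating nucleotide against viral polymerases, had the largest rise among the members called. Its brightest probe read 1.88, 1.91 and 1.49 in ADBAQ livers and -0.06, 0.24 and 0.50 in vehicle livers (log2 level). Every ADBAQ liver lay far above every vehicle liver compared with the spread inside either group. The log2 fold change was 1.53 ± 0.18 (SE), which is 2.90-fold, with an adjusted p of 0.00665, and it was 1.39 to 1.67 with any 1 array left out, at adjusted p 0.0163 to 0.0301. A second probe read 1.02, 0.87 and 0.62 in ADBAQ livers and -0.89, -0.94 and -0.41 in vehicle livers, with a log2 fold change of 1.58 ± 0.18 and an adjusted p of 0.00563. The third probe stood out from background on no vehicle array. With vehicle readings raised to at least the lowest signal well above background on their array, it was 1.93-fold higher in ADBAQ livers. That ratio was not tested. That probe entered the test only through the ADBAQ arrays, where it was well above background but dim (-3.99, -4.49 and -4.19). Its log2 fold change was 0.22 with normexp, so it adds nothing to the other 2 probes.

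The gene next to Rsad2 on chromosome 6, Cmpk2, rose as well. Cmpk2 encodes a mitochondrial nucleotide kinase that is known to be induced with viperin and to help supply its substrate. It read 0.42, 1.11 and 0.72 in ADBAQ livers and -0.59, -0.67 and -0.25 in vehicle livers. All ADBAQ livers were above all vehicle livers, at a log2 fold change of 1.25 and an adjusted p of 0.0136 for this probe, and 1.59 with an adjusted p of 0.0084 for the other. The neighbour on the other side of Rsad2, Rnf144a, an E3 ubiquitin ligase gene, had a log2 fold change of -1.02.

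No other tested antiviral effector passed the test. Oas1a, an oligoadenylate synthetase that activates RNase L on double-stranded RNA, read 1.42, 2.38 and 1.83 in ADBAQ livers and 2.62, 2.88 and 3.77 in vehicle livers. The ADBAQ livers were all below the vehicle livers, and the vehicle group was itself spread over more than 1 log2 unit. Its log2 fold change was -1.21 ± 0.36 with an adjusted p of 0.0642, and the second probe gave -1.26 with an adjusted p of 0.0535. With normexp, Oas1a was called lower, at a log2 fold change of -1.05. Ifi44, an interferon-induced antiviral protein, read 0.19, 1.75 and 1.80 in ADBAQ livers and 1.88, 1.89 and 2.19 in vehicle livers. One ADBAQ liver stood apart as low here, on all 3 probes of the gene, while the other two were close to the vehicle livers, and the log2 fold change of -0.74 ± 0.43 had an adjusted p of 0.268.

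Isg15, the ubiquitin-like modifier that type I interferon induces strongly, read 1.40, 2.26 and 2.06 in ADBAQ livers and 2.15, 2.01 and 2.68 in vehicle livers. The groups overlapped, and the 95% interval of its log2 fold change ran from -1.03 to 0.29. Usp18, the protease that removes Isg15 from proteins and damps receptor signalling, had a log2 fold change of -0.32 (interval -0.95 to 0.31). The dynamin-like GTPases Mx1 and Mx2 had log2 fold changes of -0.17 (interval -0.51 to 0.16) and -0.29 (interval -0.63 to 0.06). Their groups overlapped too.

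The RNA-binding proteins Ifit2 and Ifit3 had log2 fold changes of 0.18 (interval -0.19 to 0.55) and 0.09 (interval -0.36 to 0.54), again with overlapping groups. Ifit1, of the same family, was well above background on no ADBAQ array and on 1 vehicle array, and was not tested. The remaining effectors were the exoribonuclease Isg20, at 0.38, the antiviral protein Ifi44l, at 0.31, the oligoadenylate synthetase family members Oasl, at 0.29, and Oas1b, at -0.20, and the small membrane protein Ifi27, at -0.18, all as log2 fold changes and none called. Ifi44l and Oasl were dim, and their log2 fold changes were 0.02 and -0.01 with normexp. Ifi27l2b, a relative of Ifi27 that lies next to it, was called higher, as given below. For 17 of the 19 tested type I members the upper bound of the 95% interval lay below a 2-fold rise, the exceptions being Rsad2 and Ifi44l.

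The upstream 250 bases of Rsad2, Cmpk2 and Oas1a are shown because Rsad2 and Cmpk2 rose while Oas1a, which holds more matches, did not pass the test. Capitals mark matches on either strand to the ISRE core, searched as GAAA, any 2 bases and GAAA, or to the GAS core, searched as TTC, any 3 bases and GAA. The sequences are RefSeq's, on build GRCr8, written in the direction of transcription: Rsad2 at chr6:48788121-48788370 (minus strand), Cmpk2 at chr6:48802600-48802849 (plus strand) and Oas1a at chr12:41330216-41330465 (plus strand).
Rsad2: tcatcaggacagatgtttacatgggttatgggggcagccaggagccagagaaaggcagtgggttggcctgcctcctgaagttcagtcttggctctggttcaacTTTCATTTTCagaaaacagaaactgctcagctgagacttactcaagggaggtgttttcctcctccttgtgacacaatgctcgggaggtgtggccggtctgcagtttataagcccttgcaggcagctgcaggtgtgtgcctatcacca
Cmpk2: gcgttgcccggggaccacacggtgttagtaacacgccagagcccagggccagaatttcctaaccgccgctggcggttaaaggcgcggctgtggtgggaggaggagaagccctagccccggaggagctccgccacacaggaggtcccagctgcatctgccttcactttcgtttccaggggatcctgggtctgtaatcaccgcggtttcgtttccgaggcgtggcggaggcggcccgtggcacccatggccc
Oas1a: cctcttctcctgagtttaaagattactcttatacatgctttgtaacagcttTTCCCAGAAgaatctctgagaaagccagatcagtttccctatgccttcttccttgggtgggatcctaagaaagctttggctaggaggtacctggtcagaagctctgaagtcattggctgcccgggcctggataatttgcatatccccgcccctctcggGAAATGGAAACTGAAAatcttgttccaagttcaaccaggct
The Rsad2 match began 147 bases before the annotated start. Oas1a held a pair of overlapping ISRE matches, beginning 41 and 35 bases before its start, and a GAS match at 199 bases. Neither pattern was found in the Cmpk2 window, which says only that these exact letters are not in it.

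Promoters could be looked up for 28 of the 35 members. Within 300 bases, from 250 before to 50 after the start, the ISRE core was present in 16 of these 28 promoters, against 3.92% of all 33469 rat promoters in the table. By role it was in 8 of 10 antiviral effector promoters, 4 of 4 class I presentation promoters, 2 of 5 gamma interferon promoters and 0 of 4 class II promoters. The GAS core was in 4 of 5 gamma interferon promoters and in 8 of all 28, against 8.87% of all promoters. The matches are a description of the sequence and are not mapped binding sites, and both called and uncalled members held them.

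Among the sensor and transcription factors of the type I pathway, Irf3 fell. Irf3 is present before infection and is switched on by phosphorylation rather than by new transcription. It read 5.07, 5.13 and 5.06 in ADBAQ livers and 5.43, 5.41 and 5.45 in vehicle livers. The groups did not overlap and each was very tight. The log2 fold change was small, -0.34 ± 0.08, with an adjusted p of 0.0331; with any 1 of the 6 arrays left out it was -0.36 to -0.33 with adjusted p 0.072 to 0.101, so the call rests on having all 6 arrays. It was also lost with quantile normalisation (adjusted p 0.0572), and with spike-in scaling its log2 fold change turned to 0.41.

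Stat2, which joins Irf9 in the complex that binds the ISRE, read 3.55, 3.96 and 3.61 in ADBAQ livers and 4.24, 4.08 and 4.32 in vehicle livers. Irf7, the factor that amplifies type I interferon production, read 1.82, 2.18 and 2.06 in ADBAQ livers and 2.44, 2.30 and 2.58 in vehicle livers. For both, all ADBAQ livers were lower than all vehicle livers, and neither passed the test, at log2 fold changes of -0.51 ± 0.14 (adjusted p 0.0521) and -0.42 ± 0.13 (adjusted p 0.0717). Stat2 crossed the threshold with ADBAQ replicate 2 left out (adjusted p 0.0396). It also did so with the mean of its probes and with only probes above background on all 6 arrays. With the trend and robust options of limma, both Stat2 and Irf7 were called lower. Ifih1, a sensor of long double-stranded RNA, had a log2 fold change of -0.03 (interval -0.55 to 0.49). For Irf9, the DNA-binding subunit of that complex, the 2 probes gave -0.04 and 0.48, and it alone among the 19 members with several tested probes had probes of opposite sign.

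The type I members tended to rank the rats of a group alike. Of the 19, 16 were highest within the ADBAQ group in replicate 2 and none in replicate 1, which was the lowest for 12. Over all genes, ADBAQ replicate 2 was highest for 32.4% and replicate 1 lowest for 34.3%. In the vehicle group, replicate 3 was the highest for 14 of the 19 and the lowest for none, and replicate 2 was the lowest for 13. Over all genes those shares were 34.0% for vehicle replicate 3 highest and 30.1% for vehicle replicate 2 lowest. The median deviation from the group mean was -0.14, 0.19 and -0.04 in ADBAQ replicates 1, 2 and 3 and 0.00 in vehicle replicate 1, -0.14 in vehicle replicate 2 and 0.17 in vehicle replicate 3 (log2). The 8 antigen presentation members were highest in the same 2 rats for 5 genes each. These genes share rats and pathway, so they are not independent counts, and the rats' spread is part of the error against which each gene above was tested. The lines across arrays show this pattern.

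**Figure D2:**
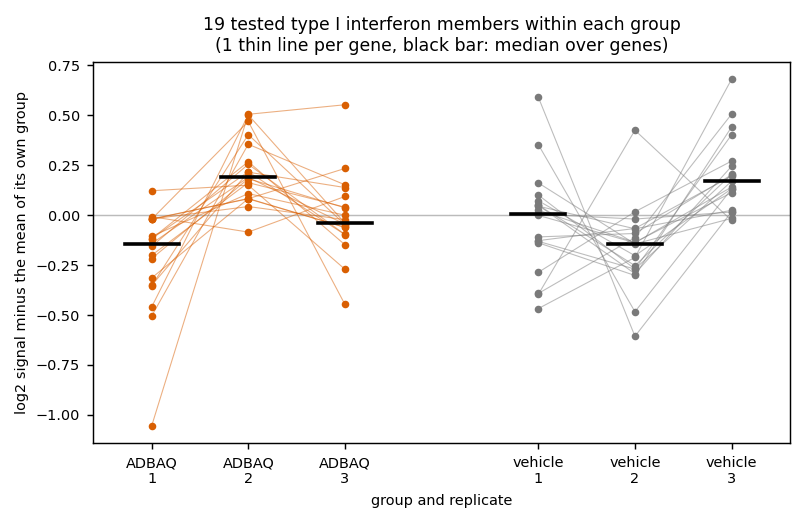
Each thin line is 1 of the 19 tested type I members, with the log2 level minus the mean of its own group on the y axis and the 3 ADBAQ and 3 vehicle arrays on the x axis, and black bars are medians over genes. The medians are highest in ADBAQ replicate 2, at 0.19, and in vehicle replicate 3, at 0.17.

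Gamma interferon targets include families of GTPases that attack pathogen vacuoles inside cells. Ifi47, an immunity-related GTPase, read -0.41, -0.16 and -0.76 in ADBAQ livers and -1.61, -1.50 and -1.65 in vehicle livers. The vehicle livers were nearly equal and all ADBAQ livers lay well above them. The log2 fold change was 1.15 ± 0.16, 2.21-fold, with an adjusted p of 0.00961, and 0.0127 to 0.039 with any 1 array left out.

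Gbp2, a guanylate-binding protein, read 1.77, 1.82 and 1.91 in ADBAQ livers and 0.86, 1.18 and 1.35 in vehicle livers. All ADBAQ livers were higher, and the vehicle livers were the more spread. The log2 fold change was 0.70 ± 0.14, 1.63-fold, with an adjusted p of 0.0231, which became 0.0639, 0.066 and 0.0735 without ADBAQ replicate 1, 2 or 3 and 0.0559 without vehicle replicate 2.

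Irf1, the transcription factor through which gamma interferon reaches many targets, read 3.92, 3.75 and 3.78 in ADBAQ livers and 3.45, 2.94 and 3.37 in vehicle livers. The groups did not overlap, and the log2 fold change of 0.56 ± 0.15 had an adjusted p of 0.0517, just above the threshold; its second probe gave 0.62. Irf1 was called higher with quantile normalisation (adjusted p 0.0395) and with median centring (adjusted p 0.0475). It was also called with normexp, spike-in scaling, array weights, and the trend and robust options of limma. The same held with only probes above background on all 6 arrays. With any 1 array left out it was not called (adjusted p 0.0558 to 0.142). Irf8, a factor of myeloid cell development, had a log2 fold change of 0.51 (interval -0.14 to 1.16) with overlapping groups. Its probe was dim, and that value was 0.03 with normexp. Igtp, another immunity-related GTPase, was not called. It read 7.74, 7.85 and 7.77 in ADBAQ livers and 7.87, 7.81 and 7.84 in vehicle livers, for a log2 fold change of -0.05 with a narrow interval from -0.25 to 0.15.

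The upstream sequences of the 2 called members of the gamma interferon group are shown with the same marking, Ifi47 at chr10:33798494-33798743 (plus strand) and Gbp2 at chr2:234005477-234005726 (plus strand), since they carry different motifs.
Ifi47: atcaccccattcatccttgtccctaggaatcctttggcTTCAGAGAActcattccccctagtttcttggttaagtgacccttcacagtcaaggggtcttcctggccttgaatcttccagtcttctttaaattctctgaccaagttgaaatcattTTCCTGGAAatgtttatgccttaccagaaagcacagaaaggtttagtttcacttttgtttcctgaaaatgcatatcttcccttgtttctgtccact
Gbp2: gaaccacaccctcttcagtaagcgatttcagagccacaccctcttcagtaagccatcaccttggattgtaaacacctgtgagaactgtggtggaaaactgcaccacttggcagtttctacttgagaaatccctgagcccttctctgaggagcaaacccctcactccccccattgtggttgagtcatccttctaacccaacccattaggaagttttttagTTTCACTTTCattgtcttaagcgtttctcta
Ifi47 held GAS matches beginning 212 and 96 bases before its start and no ISRE match. Gbp2 held 1 ISRE match beginning 31 bases before its start and no GAS match.

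**Figure D3:**
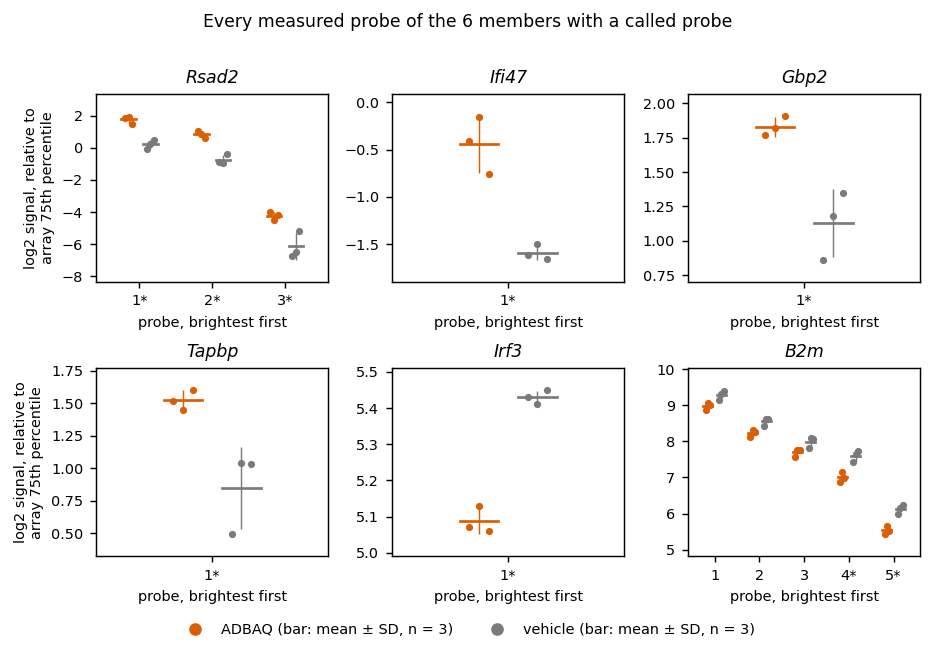
Log2 level of every tested probe of the 6 members with a called probe, ADBAQ arrays in orange at the left of each pair and vehicle arrays in grey, with means and SD bars (n = 3), and an asterisk on called probes. The 2 brighter Rsad2 probes are higher on every ADBAQ array, and the dimmest was tested only because it is well above background on the ADBAQ arrays. On all 5 B2m probes the ADBAQ arrays read below the vehicle arrays, and 2 of these probes were called.

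Class I molecules present peptides that the Tap transporter brings into the endoplasmic reticulum and that tapasin helps to load. Tapbp, which encodes tapasin, read 1.52, 1.45 and 1.60 in ADBAQ livers and 0.49, 1.04 and 1.03 in vehicle livers. The ADBAQ livers were close together and above all vehicle livers, of which replicate 1 was the lowest. The log2 fold change was 0.68 ± 0.17, 1.60-fold, with an adjusted p of 0.04. The call was lost without any of ADBAQ replicates 1, 2 and 3 (adjusted p 0.106, 0.0877 and 0.11), without vehicle replicate 2 (0.0573) and without vehicle replicate 3 (0.0607). The upstream 250 bases of Tapbp, at chr20:4967878-4968127 (minus strand), held a pair of overlapping ISRE matches beginning 26 and 20 bases before the start, marked as above.
Tapbp: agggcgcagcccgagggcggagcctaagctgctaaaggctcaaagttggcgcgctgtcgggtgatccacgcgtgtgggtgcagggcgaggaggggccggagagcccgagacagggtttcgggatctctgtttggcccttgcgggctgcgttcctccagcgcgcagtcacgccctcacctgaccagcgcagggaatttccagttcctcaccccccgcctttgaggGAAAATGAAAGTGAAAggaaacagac
The subunits of the transporter that tapasin tethers were not called. Tap1 had a log2 fold change of -0.17 (interval -0.50 to 0.17) and Tap2 of -0.16 (interval -0.40 to 0.08), though both promoters also held an ISRE match.

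B2m, the light chain that every classical class I molecule needs, was measured by 5 probes, on each of which every ADBAQ liver read below every vehicle liver. The brightest, which stands for the gene in the counts above, read 8.88, 9.06 and 9.02 in ADBAQ livers and 9.16, 9.32 and 9.41 in vehicle livers. Its log2 fold change of -0.31 ± 0.11 had an adjusted p of 0.091. Of the dimmest probes, one read 6.88, 7.14 and 6.98 in ADBAQ livers and 7.42, 7.64 and 7.73 in vehicle livers, and the other 5.43, 5.66 and 5.52 in ADBAQ livers and 5.99, 6.16 and 6.24 in vehicle livers. Both of these were called lower, at a log2 fold change of -0.59 each and adjusted p values of 0.0238 and 0.0185. The mean of the 5 probes was lower by the same test (-0.42, adjusted p 0.0347), and with normexp the brightest probe was called lower too (-0.43). The call for B2m thus depends on how probes are combined and on the background correction. With spike-in scaling its brightest probe turned to 0.45. Over single probes, 6 member probes (the dim Rsad2 probe among them) were called higher and 3 lower of 57 tested, where 8.37% and 10.0% of all 38695 probes were, 18.4% in all.

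The class I heavy chain genes were read from a wider list of antigen presentation genes. Of its 34 tested genes, 8 fell and none rose, where 11.3% of all genes fell and 9.05% rose. RT1-S3, a class I gene, read 3.30, 3.69 and 3.68 in ADBAQ livers and 4.12, 4.08 and 4.12 in vehicle livers, at a log2 fold change of -0.55 and an adjusted p of 0.0344, and its second probe gave -0.95. RT1-CE7 and RT1-CE16, also class I genes, had log2 fold changes of -0.55 (adjusted p 0.024) and -0.60 (adjusted p 0.0295). Also lower were Calr and Pdia3, chaperones of the loading complex, at -0.77 (adjusted p 0.0193) and -0.49 (adjusted p 0.0426), and RT1-DOb, a class II chain that restrains peptide exchange, at -0.74 (adjusted p 0.0173). The other genes called lower were Rfxank and Fcgrt. RT1-S3 and Pdia3 lost their calls with any 1 array left out (adjusted p 0.0602 to 0.0836 and 0.0589 to 0.105), RT1-CE7 with any but vehicle replicate 1 (highest 0.0747), RT1-CE16 with any but vehicle replicate 2 (highest 0.089), and Calr without ADBAQ replicate 2 or vehicle replicate 2 or 3 (highest 0.0565), while RT1-DOb kept its call each time. With spike-in scaling the 3 RT1 class I genes turned to 0.16 to 0.21, and RT1-DOb and Pdia3 to 0.02 and 0.27.

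RT1-CE5, singled out after its values were seen, gave opposite answers on its 4 probes. Of the dimmer pair, one probe read 0.17, 0.09 and 0.18 in ADBAQ livers and -2.09, -1.53 and -2.17 in vehicle livers. The other read -1.67, -2.06 and -1.76 in ADBAQ livers and -4.64, -3.32 and -3.95 in vehicle livers. Both were far higher in every ADBAQ liver, at log2 fold changes of 2.08 (adjusted p 0.00304) and 2.14 (adjusted p 0.0114). The 2 brighter probes gave -0.21 and -0.33 and were not called. RT1 class I genes are near-identical copies that vary between haplotypes, and a probe can take up RNA of several, so a change in any 1 RT1 class I gene is uncertain here. The plot of MHC probes sets these side by side.

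**Figure D4:**
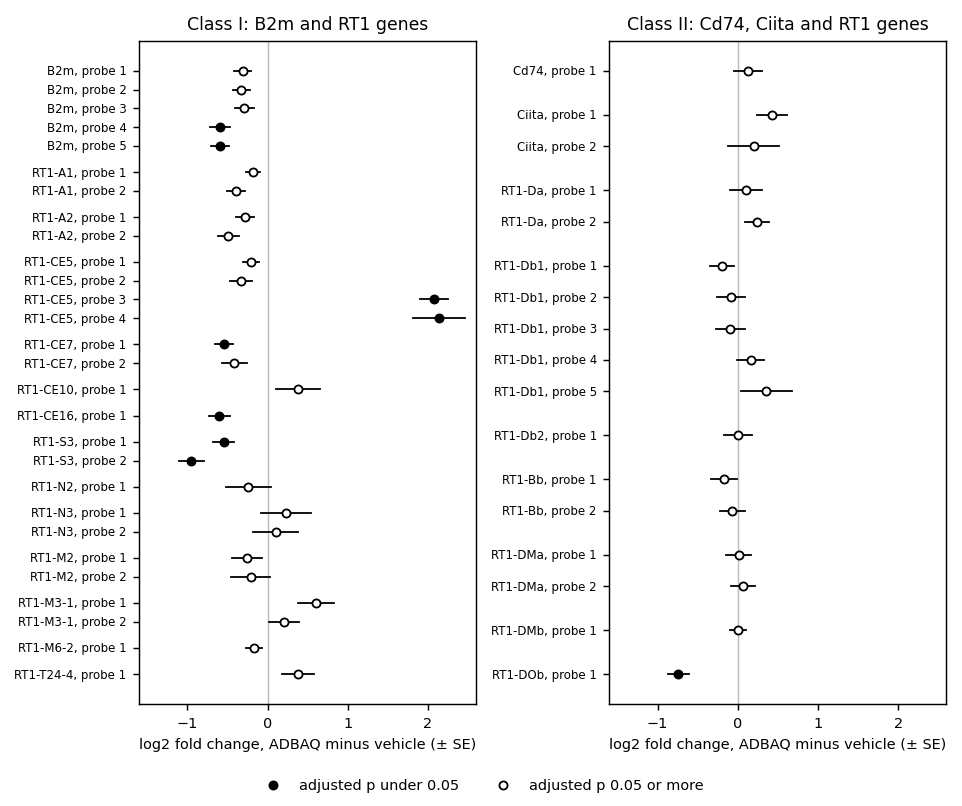
Log2 fold change, ADBAQ minus vehicle, with its SE, for every tested probe of B2m and RT1 class I genes at the left and of class II genes at the right, filled where called. The dimmer pair of RT1-CE5 probes lies above 2 while the other called class I probes lie between -0.95 and -0.55.

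The class II members, which mark antigen-presenting cells, were not called. Cd74, the invariant chain that guards the class II groove, read 3.49, 3.80 and 3.52 in ADBAQ livers and 3.15, 3.53 and 3.75 in vehicle livers. RT1-Da, a class II alpha chain, read 2.32, 2.56 and 2.19 in ADBAQ livers and 1.87, 2.33 and 2.55 in vehicle livers. In both genes the groups overlapped, and the intervals of the log2 fold changes were -0.30 to 0.55 and -0.37 to 0.58. Ciita, the transactivator of class II genes, had a log2 fold change of 0.43 (interval -0.02 to 0.88), and RT1-Bb, a class II beta chain, of -0.17 (interval -0.56 to 0.21). The Ciita probe was dim, and its value was 0.04 with normexp. RT1-Ba was well above background on none of the 6 arrays and was not tested.

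Other genes of the interferon pathway were taken from lists by role, and their counts stand against 9.05% higher and 11.3% lower over all genes. Of the ligands, only Ifna4 was tested (log2 fold change -0.17, not called), and Ifnb1, Ifng and Ifnk were well above background on no array. Of 12 receptor and JAK-STAT genes none rose and 1 fell, Pias1, a SUMO ligase that damps cytokine signalling, at -0.37 (adjusted p 0.0473). Of 20 genes of nucleic acid sensing none rose and 2 fell, a share near that of all genes: Myd88, the adaptor of Toll-like receptors, at -0.52 (adjusted p 0.0435), and Trim25, a ubiquitin ligase that activates RIG-I, at -0.45 (adjusted p 0.0309). Pias1 and Trim25 lost their calls with any 1 array left out (adjusted p 0.0779 to 0.136 and 0.058 to 0.0799) and Myd88 with any but vehicle replicate 1 (0.026 to 0.118), and all 3 changed sign with spike-in scaling, to 0.38, 0.30 and 0.23 in the order Pias1, Trim25, Myd88. Of 5 immunoproteasome genes none was called.

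Of 36 other interferon-induced genes 5 rose and 2 fell, a share near the 20.3% called over all genes, so the count is no result about these genes. Cxcl10, the chemokine that draws activated T cells, read 1.28, 1.38 and 1.85 in ADBAQ livers and -0.31, 0.27 and 0.60 in vehicle livers. Its groups did not overlap, and its log2 fold change was 1.32 (adjusted p 0.0226). Ifi27l2b read 8.28, 8.24 and 8.52 in ADBAQ livers and 6.83, 7.33 and 7.54 in vehicle livers, at 1.11 (adjusted p 0.0161), with its second probe at 1.20. The others that rose were Cmpk2, given above, Casp4, an inflammatory caspase that senses lipopolysaccharide, at 1.39 (adjusted p 0.0406), and Plscr1, a phospholipid scramblase, at 0.93 (adjusted p 0.0171). Those that fell were Ifitm3, which blocks viral entry at endosomes, at -0.85 (adjusted p 0.048), and Oas2. Among these, Cmpk2 kept its call with each array left out in turn (adjusted p 0.0261 to 0.0447), and Casp4 lost it each time (0.051 to 0.109). Cxcl10 lost it without any 1 of the ADBAQ replicates or vehicle replicate 2 (highest adjusted p 0.0649), Ifi27l2b without ADBAQ replicate 1 or 3 (0.0532), Plscr1 without vehicle replicate 3 (0.0532), and Ifitm3 with any array but vehicle replicate 1 left out (0.123).

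Markers of the cells that make or answer interferon were read on the same arrays. Their counts stand beside 9.05% of all genes called higher and 11.3% called lower. Of 12 Kupffer cell markers tested none was called, and their summed level was 128 to 145 in ADBAQ livers and 120.2 to 148 in vehicle livers, in multiples of the 75th percentile. Of 8 tested markers of recruited monocytes and macrophages 4 were called higher (Lyz2, S100a4, Gpnmb and Trem2). Ccr2 and Itgam of that list were too dim to test. Trem2 was dim, and its log2 fold change of 1.19 was 0.15 with normexp. The sum of the 8 was 51.2 to 59.0 in ADBAQ livers and 35.9 to 39.9 in vehicle livers. Without Lyz2 that sum was 18.8 to 22.3 in ADBAQ livers and 17.5 to 21.7 in vehicle livers, so the groups overlapped, and Cd14 of the same list was not called, at log2 fold changes of -0.49 and -0.56 on its probes. Of 8 NK cell markers 1 was called, lower, a share of 12.5% that is near that of all genes. Their sum was 3.57 to 4.57 in ADBAQ livers and 4.73 to 5.43 in vehicle livers, and Klrb1 was not above background on any array. Without the called gene, Gzma, the NK sum was 3.05 to 3.67 in ADBAQ livers and 3.15 to 3.89 in vehicle livers, so the groups overlapped. Of the 8 NK markers, 3 had log2 fold changes above 0 and 5 below. Klrg1 and Klrb1a, both dim, were at 0.80 and 0.45, not called, and at 0.33 and -0.04 with normexp. Prf1 and Gzmb were at -0.39 and -0.30, not called. The third Gzmb probe was called lower, at -0.66 (adjusted p 0.0265). Of 7 T cell markers 1 was called, lower (Cd8a, at -0.85), a share of 14.3% that is also near that of all genes. Cd8b, at 0.34, went the other way and was not called. It was dim, and with normexp it was at -0.04, where Cd8a was at -0.65. The T cell sum was 1.55 to 1.87 in ADBAQ livers and 1.76 to 2.00 in vehicle livers, so the groups overlapped. Cd5 and Trat1 were not above background. Of 10 hepatocyte markers, all measured, 7 were called lower, and their sum was 5202 to 5481 in ADBAQ livers and 6714 to 7254 in vehicle livers. This direction depends on the scaling. With spike-in scaling the called Alb, Apob, Ttr, Serpina1, Fgb and Ahsg turned to log2 fold changes of 0.41, 0.08, 0.39, 0.19, 0.17 and 0.33. The lowest log2 fold change of the list, -1.21, was larger in size than the 0.76 that this scaling adds. Of the other lists, dendritic cell markers had 1 higher and 1 lower of 5, cholangiocyte markers 2 higher and 1 lower of 5, B cell and plasma cell markers 1 lower of 6 and of 3, and plasmacytoid dendritic cell (4), neutrophil (4), sinusoidal endothelial (5) and stellate cell (7) markers none called. The part of these shifts in the changes of Ifi47, Gbp2, Tapbp, B2m and the RT1 genes was not tested.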

How the data were processed

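The authors' scanner files hold 1 Agilent array each (Feature Extraction 10.7.1.1, design build rn4, per the file headers, and 10.7 per the submitters' processing notes). The processed intensity was deposited per spot, background-subtracted and not normalised between arrays, per the file headers. The authors' series table holds the processed intensity as a ratio to each array's 75th percentile: set against the scanner files, its log2 values correlated at 1 on all 6 arrays, with column medians of 0.0929, 0.0971 and 0.0952 for ADBAQ and 0.0967, 0.097 and 0.0982 for vehicle. Its scale and centring followed from that comparison.

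From there, 1319 control spots and up to 2 outlier spots per array were left out, log2 intensity was scaled to the 75th percentile, and a probe was kept if either group had it well above background on its 3 arrays (38695 probes). No probe was saturated. limma 3.58.1 (R 4.3.3; lmFit, eBayes) compared 3 ADBAQ with 3 vehicle arrays without a block, with Benjamini-Hochberg adjustment over all kept probes and a threshold of 0.05. Probes were named by RefSeq accession (27460 of 61657 named), and the kept probe with the highest mean stood for its gene. The code was tested on simulated data. Same-numbered replicates had correlations of -0.0292, -0.0196 and -0.0041 of their deviations and were not taken as pairs. Sequences are RefSeq's, GRCr8, matched by symbol. All members were described, with up to 6 called genes of each other list (the largest changes). The members, lists and alternatives were chosen with earlier results of these data known. Alternatives were normexp background correction (offset 50, on the median spot signal), 3 other scalings, 2 other filters, the series table, other limma settings, probe means and each array left out. Marker sums without a gene were added after seeing the data.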

Additional observations from a re-analysis of the deposited data

How the results depend on the processing

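With all arrays and the stated settings, 2308 genes and, of the members, 4 higher and 1 lower were called. Genes called were 4041 with normexp, 9124 with spike-in scaling, 3530 with no filter on dim probes and 982 with the replicate block, which took away the calls of Irf3 and Tapbp, left 3 members higher and 0 lower, and is no test of pairs here since the replicate numbers share nothing else. Leaving out 1 array gave 922 to 1565 genes, 2 to 4 members higher and 0 to 1 lower. Members called lower were 3 with normexp, trend and robust eBayes, or the mean of a gene's probes. They were 2 with probes above background on all 6 arrays, and 0 with quantile normalisation, spike-in scaling or the block. With no filter they were also 3, but no member tested under the stated settings gained a call. That count takes in Ifit1, well above background on 1 vehicle array only, and RT1-Ba, on no array, so it reflects readings near background. The share of calls that were higher was 44.5%, and 34.5% with normexp, 98.0% with spike-in scaling and 32.4% with no filter. Spike-in scaling, on 8 control probes, gave 27 members higher and medians of 0.58, 1.32 and 0.73 for type I, gamma interferon and antigen presentation members. It turned Ifi27 (0.58), Mx1 (0.58), Mx2 (0.47), Oas1b (0.56), Ifih1 (0.73), Irf3 (0.41), Irf7 (0.34), Irf9 (0.72), Igtp (0.70), Tap1 (0.59), Tap2 (0.60), B2m (0.45), RT1-Bb (0.58), Pias1 (0.38), Myd88 (0.23), Trim25 (0.30), RT1-DOb (0.02), RT1-CE16 (0.16), RT1-CE7 (0.21), RT1-S3 (0.21) and Pdia3 (0.27) to positive log2 fold changes, and also Ifi44 (0.02), Isg15 (0.38), Usp18 (0.44) and Stat2 (0.25), which were called under neither scaling; this scaling adds one constant to all genes. Over the members and all alternatives, 468 values kept direction and side of the threshold, 21 changed sign while uncalled under both settings, 24 gained a call, 18 lost one and 13 turned with a call under at least 1 setting. Rsad2 and Ifi47 kept their calls under every alternative run. The third Rsad2 probe, dim in both groups, had a log2 fold change of 0.22 with normexp. Slide and scan day cannot be told apart from treatment, and Ifit1 and RT1-Ba were too dim to test.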
